A study of Mus musculus with 33 samples.

Results

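The 10 genes described here are the glucocorticoid receptor *Nr3c1*, the mineralocorticoid receptor *Nr3c2*, the enzyme *Hsd11b1*, 6 genes that glucocorticoids induce in many tissues (*Sgk1*, *Fkbp5*, *Tsc22d3*, *Zbtb16*, *Ddit4* and *Klf9*) and *Depp1*, out of 41565 named genes in the deposited table. The members were chosen by gene symbol, and *Depp1* was chosen from its higher value in the POA 4 months after OVX, a contrast that it had already passed. For this reason, all members are described without a test in the 2 POA comparisons that involve 4 months, whereas the PH comparisons and the POA at 14 days were tested. All 10 members passed the filter on low values in both regions.

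Bulk RNA-seq libraries were made from the posterior hypothalamus (PH), which holds the arcuate nucleus, and from the preoptic area (POA), dissected from WT C57BL/6 female mice. Intact mice gave 4 PH and 5 POA libraries, and mice 14 days and 4 months after OVX gave 6 libraries each per region, 33 in all. OVX was performed at 3 to 4 months of age. The intact mice were in diestrus and had no surgery, although the titles of these libraries say sham. The 4-month mice were therefore older than the intact mice, and age and time after OVX cannot be told apart. The labels place the libraries of each group in batch 1 or batch 2, and they do not say which libraries came from the same mouse or whether each came from a separate one, so the spread between libraries may in part be technical.

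Corticosterone, the main glucocorticoid of mice, acts through *Nr3c1* and, with higher affinity, through *Nr3c2*, and both receptors move to the nucleus and bind glucocorticoid response elements in DNA. *Hsd11b1* regenerates corticosterone from its inactive 11-keto form inside cells. Among the induced genes, *Fkbp5* encodes a cochaperone that lowers the affinity of the receptor for hormone, *Tsc22d3* encodes GILZ, which restrains NF-κB and AP-1, *Sgk1* encodes a kinase that acts on ion channels and transporters, *Ddit4* encodes REDD1, an inhibitor of mTORC1, and *Zbtb16* and *Klf9* encode zinc finger transcription factors. *Depp1*, named for its induction by progesterone in decidual cells of the endometrium, is also induced by FOXO transcription factors.

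The values are the normalized expression values that the authors deposited, on a linear scale with a floor of 22.1 for genes without measurable expression. They are not counts, and their sums of 44.5 to 72.9 mega units per library are not read totals, so depth and counting error are unknown. In 108 genes at the floor, 1 component described 100% of the variation in log2 values across libraries, and 83.5% of it separated PH from POA libraries. Levels were therefore compared within regions and not between them. In the PH, replicate 5 at 14 days had the highest sum, 72.9 mega units against 47.4 to 54.5 in the other PH libraries, and it is the library that stands apart in the values of *Depp1* and *Tsc22d3* below. Markers of neurons (8 of 8), astrocytes (8 of 8), oligodendrocytes (8 of 8), microglia (6 of 6) and endothelial cells (8 of 8) reached 2 times the floor in every library, as did 7 of 9 hypothalamic peptide genes.

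The 2 stretches of regulatory DNA below are shown because they hold the matches to the searched motifs that belong to *Sgk1* and *Depp1*, the members with the largest fitted changes at 14 days and 4 months. The first search used the palindromic glucocorticoid response element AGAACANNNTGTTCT, in which N is any base, and the second used the FOXO-type letters GTAAACA and GTAAATA, all on both strands. Promoters were the 250 bases before each annotated start of transcription in the RefSeq table (GRCm38.p6), in which 8 of the 10 members were searched, and the printed bases were located by exact match in GRCm39, the build of the deposited data. The palindrome occurred in 3 of 32851 promoters, and 1 of these 3 belongs to *Sgk1*. This stretch of 250 bases lies at chr10:21869539-21869788 (plus strand) within an intron of *Sgk1* (chr10:21758083-21875802), before 1 of its 6 listed starts. The palindrome, in capitals, is centered 958 bases upstream of the start of the canonical transcript.
Sgk1: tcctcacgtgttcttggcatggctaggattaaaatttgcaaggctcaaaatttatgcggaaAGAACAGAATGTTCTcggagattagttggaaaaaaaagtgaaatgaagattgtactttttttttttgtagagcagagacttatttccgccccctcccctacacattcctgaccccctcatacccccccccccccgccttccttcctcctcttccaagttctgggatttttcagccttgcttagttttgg
The *Depp1* stretch of 175 bases lies at chr6:116627395-116627569 (plus strand) and ends directly before the gene (chr6:116627570-116629755). Its capitals mark GTAAATA.
Depp1: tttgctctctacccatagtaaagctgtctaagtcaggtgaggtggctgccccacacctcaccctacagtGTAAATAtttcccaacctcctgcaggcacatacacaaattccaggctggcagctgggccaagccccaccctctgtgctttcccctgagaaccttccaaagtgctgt
FOXO-type letters occurred in 5.76% of all promoters, and the other members with a match were *Klf9* and *Hsd11b1*, each with 1 copy of GTAAACA. When the palindrome was searched within 10 kb on either side of the canonical start of 21228 protein-coding genes in GRCm39, it was found in 0.320% of genes and, among the 9 members searched, in *Sgk1*. These matches describe letters in the sequence, and binding was not measured.

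Values of the receptors in the groups overlapped throughout. *Nr3c1* had values of 7179, 7840, 7864 and 7776 in the intact PH, a range of 6341 to 8867 (median 7526) at 14 days and of 6541 to 8959 (median 6667) at 4 months. The fitted PH changes were -0.11 ± 0.08 (SE) on the log2 scale at 14 days and -0.10 ± 0.08 at 4 months, with 95% confidence intervals of -0.28 to 0.069 and -0.28 to 0.067. In the POA, the intact libraries had 7281, 7845, 6453, 6751 and 6377, and the ranges were 6463 to 8622 (median 7188) at 14 days and 6597 to 7926 (median 6840) at 4 months. The POA change of *Nr3c1* was 0.047 ± 0.05 at 14 days and -0.0038 ± 0.05 at 4 months. In bulk tissue, fewer cells of a type and less RNA per cell cannot be told apart, for this and for every other member.

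*Nr3c2*, the high-affinity receptor that is most abundant in the hippocampus, showed its largest spread in the PH at 4 months, where replicates 1 and 4 had 4240 and 3465 and the other 4 libraries had 1901 to 2108. The intact PH libraries had 2697, 1922, 2380 and 2586, and the 14-day libraries ranged from 1949 to 2463 (median 2178). The fitted PH change at 4 months was 0.09 ± 0.20, and without the replicates 1 and 4 it was -0.21 ± 0.10, so the sign rested on these 2 libraries. The same 2 libraries had the highest summed value of 7 genes of forebrain excitatory neurons outside the hypothalamus (*Neurod6*, *Neurod2*, *Spink8*, *Hpca*, *Bcl11b*, *Emx1* and *Fibcd1*), at 21715 and 21379 against 4699 to 11797 in the other 14 PH libraries, and 6 of the 7 genes were higher in both than in any other PH library. The exception was *Neurod6*, at 1580 and 721 in these 2 libraries and at 1414 in 14-day replicate 5. This gene list was written after the values were seen. Its genes *Bcl11b*, *Hpca* and *Spink8* were among those most like *Nr3c2* in the PH (r = 0.98, 0.97 and 0.97, group and batch means subtracted). *Hpca* alone had 14528 and 14419 in these 2 libraries. The high sum is thus not a separate observation, and the part of these neurons in the *Nr3c2* values was not tested. In the POA, no library stood apart in the summed value (6180 to 9916). For *Neurod6* and *Neurod2* alone, POA replicate 3 at 4 months was highest, at 488 and 541. The other POA libraries had at most 305 and 316. *Nr3c2* was 2346 in that library. The POA values of *Nr3c2* were 2787, 2513, 2576, 2555 and 2370 in intact mice and 1746 to 2670 (median 2294) at 14 days. The POA change at 14 days was -0.23 ± 0.09 (unadjusted *P* = 0.0207, adjusted *P* = 0.799, limma), and it was -0.072 ± 0.09 at 4 months.

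**Figure D1:**
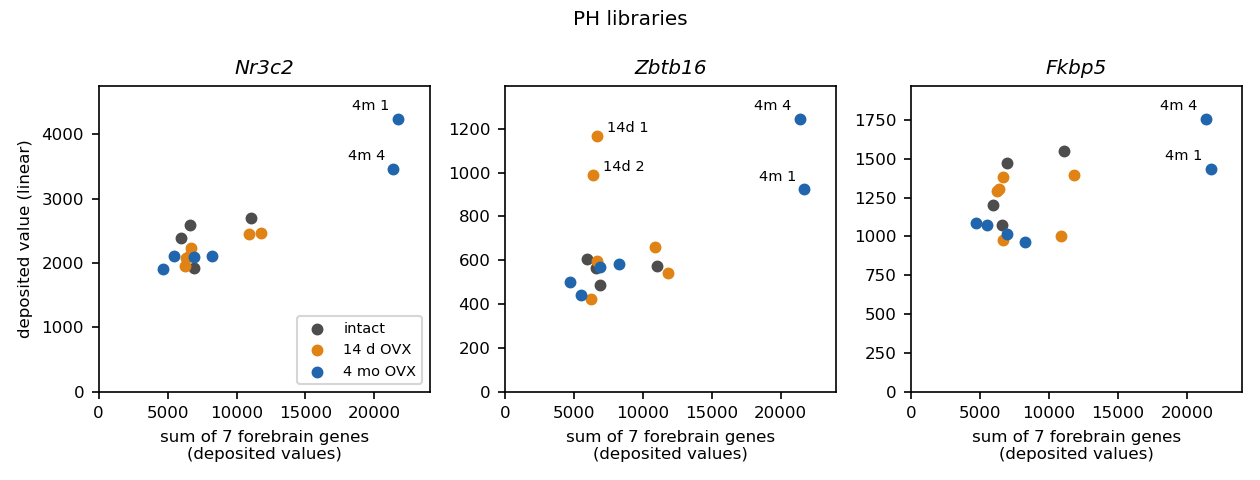
Deposited values of *Nr3c2*, *Zbtb16* and *Fkbp5* (vertical axes, linear) against the summed deposited values of 7 forebrain genes (horizontal axes) in the 16 PH libraries, 1 point per library, colored by group. PH libraries 1 and 4 at 4 months lie at 21715 and 21379 on the horizontal axis and hold the 2 highest *Nr3c2* values, 4240 and 3465. The 14-day libraries 1 and 2, which are high in *Zbtb16*, lie at 6672 and 6368 on the horizontal axis.

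*Hsd11b1* varied as much within groups as between them. Its values were 769, 762, 689 and 592 in the intact PH, 660 to 907 (median 743) at 14 days and 553 to 950 (median 757) at 4 months. In the POA, they were 757, 946, 705, 715 and 469 in intact mice, 403 to 963 (median 679) at 14 days and 495 to 822 (median 656) at 4 months. The fitted changes lay between -0.12 ± 0.21 (POA at 14 days) and 0.14 ± 0.11 (PH at 4 months) on the log2 scale.

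*Sgk1* had the largest fitted decrease among the members. In the PH, intact libraries had 3980, 2287, 2867 and 4625, and at 14 days the values were 1470 to 2273 (median 1855), so that every 14-day library lay below every intact one, the nearest pair being 2273 and 2287. The share of all genes whose groups lay apart in this way was not computed. The fitted change was -0.84 ± 0.23 (SE), a fold of 0.560, with a 95% confidence interval of -1.32 to -0.36. This did not pass the threshold over the 21998 genes tested (unadjusted *P* = 0.0021, adjusted *P* = 1.00, limma), while the exact two-sided permutation test of *Sgk1* alone gave *P* = 0.00476, the smallest that 210 arrangements allow, and *P* = 0.01, again the smallest possible, when labels were exchanged within batches only. The POA libraries had 3395, 1921, 2167, 4524 and 4696 in intact mice and 1259 to 2262 (median 1680) at 14 days, and here the 2 lowest intact libraries lay within the range of the 14-day ones. The POA change was -0.85 ± 0.29, a fold of 0.555 (interval -1.48 to -0.22, unadjusted *P* = 0.0117, adjusted *P* = 0.799), with *P* = 0.0173 in the exact permutation test and *P* = 0.025 within batches. The sign was negative in each batch of each region, at -0.61 (batch 1) and -1.07 (batch 2) for PH libraries and -0.51 and -1.16 for POA libraries.

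At 4 months, the *Sgk1* medians lay between those of the other groups. The PH values were 1952 to 3869 (median 2865), with a fitted change of -0.29 ± 0.22 from intact and of 0.54 ± 0.21 from 14 days (unadjusted *P* = 0.0196, adjusted *P* = 1.00). The POA values were 1570 to 3712 (median 2722), with a change of -0.24 ± 0.29 from intact and of 0.61 ± 0.28 from 14 days. Within batches 1 and 2, the change from intact was 0.070 and -0.65 for PH libraries and -0.18 and -0.29 for POA libraries, so that the PH sign differed between batches. With single libraries left out, it ranged from -0.47 (without intact replicate 2) to -0.12 (without intact replicate 4) in the PH. All 3 comparisons of a region share libraries, so these values are not independent of the decrease at 14 days. The summed value of the 8 oligodendrocyte markers, a cell type in which *Sgk1* is abundant, had medians of 314766, 295269 and 300964 for the PH of intact, 14-day and 4-month mice and of 315002, 296484 and 318585 for the POA, with overlapping ranges, and their part in the *Sgk1* values was not tested.

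*Ddit4* had its lowest medians at 14 days, as *Sgk1* did, with smaller changes. Its PH values were 1038, 879, 1412 and 1791 in intact mice, 561 to 1283 (median 956) at 14 days and 1114 to 1781 (median 1319) at 4 months. The fitted PH changes were -0.21 ± 0.14 at 14 days and 0.07 ± 0.13 at 4 months relative to intact, and 0.28 ± 0.13 between 14 days and 4 months (unadjusted *P* = 0.044, adjusted *P* = 1.00). In the POA, the values were 978, 908, 1271, 1685 and 1593 in intact mice, 898 to 1324 (median 1034) at 14 days and 1046 to 1659 (median 1400) at 4 months, and the change was 0.37 ± 0.10 between 14 days and 4 months. Within batches 1 and 2, the change from intact to 14 days was -0.013 and -0.76 for the PH and -0.015 and -0.33 for the POA, so that it was near 0 in batch 1. The fitted PH value was -0.36 without intact replicate 2 and -0.089 without intact replicate 4. Intact libraries of batch 1 (879 to 1038) were lower than those of batch 2 (1271 to 1791) in both regions.

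*Zbtb16* had its highest 14-day values in the same 2 replicate numbers of both regions. In the PH, intact libraries had 574, 488, 604 and 566, replicates 1 and 2 at 14 days had 1168 and 989, and the other 4 had 424 to 658. In the POA, intact libraries had 511 to 701, replicates 1 and 2 at 14 days had 1114 and 1050, and the other 4 had 550 to 808. The 14-day mean thus rested on these libraries. The fitted 14-day changes were 0.34 ± 0.32 for the PH and 0.36 ± 0.19 for the POA (adjusted *P* = 1.00 and 0.818), and without replicates 1 and 2 they were 0.023 ± 0.28 and 0.099 ± 0.14. Those 4 libraries belong to batch 1. Their forebrain sums in the PH, 6672 and 6368, were within the range of the intact libraries, and the part of forebrain neurons in the *Zbtb16* values was not tested. At 4 months, the PH replicates 1 and 4 had *Zbtb16* values of 926 and 1246 against 441 to 583 in the others, and the fitted PH change of 0.24 ± 0.31 became -0.11 ± 0.25 without them. The POA values at 4 months were 490 to 775 (median 536), a change of -0.048 ± 0.19 from intact.

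*Fkbp5* and *Tsc22d3*, which are widely used readouts of glucocorticoid action, had small negative fitted changes in every comparison with intact mice. For *Fkbp5*, the intact PH values were 1554, 1475, 1202 and 1071 and the intact POA values 1412, 1429, 1038, 1261 and 1040, and the changes at 14 days were -0.18 ± 0.15 in the PH and -0.18 ± 0.11 in the POA, with adjusted *P* = 1.00 and 0.827. At 4 months they were -0.11 ± 0.15 and -0.15 ± 0.11, and the PH value was -0.32 ± 0.11 without replicates 1 and 4, in which *Fkbp5* was 1437 and 1759 against 967 to 1088 in the other 4 libraries. For *Tsc22d3*, the intact PH values were 3655, 3965, 4576 and 4366 and the intact POA values 3951, 3406, 4329, 4033 and 5183. At 14 days its PH change was -0.15 ± 0.10 (adjusted *P* = 1.00) and its POA change -0.10 ± 0.09 (adjusted *P* = 0.887), and at 4 months they were -0.16 ± 0.09 and -0.13 ± 0.09. *Tsc22d3* was lowest in PH replicate 5 at 14 days, at 2344 against 3628 to 3869 in the other 14-day libraries.

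*Klf9*, a target of glucocorticoid and thyroid hormone receptors, had negative fitted changes after OVX in both regions. The PH values were 9811, 7648, 8009 and 8290 in intact mice, 6997 to 9434 (median 7821) at 14 days and 5443.9 to 8706 (median 7381) at 4 months. The fitted PH change was -0.16 ± 0.10 at 14 days and -0.23 ± 0.10 at 4 months (unadjusted *P* = 0.0291, adjusted *P* = 0.752). The POA values were 9375, 8373, 6683, 7498 and 7330 in intact mice, 5171 to 8844 (median 6950) at 14 days and 6161 to 7683 (median 7184) at 4 months. The POA change was -0.20 ± 0.07 at 14 days (unadjusted *P* = 0.0099, adjusted *P* = 0.799) and -0.20 ± 0.07 at 4 months. None of the tested *Klf9* changes passed the adjustment, and the groups overlapped in each comparison.

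**Figure D2:**
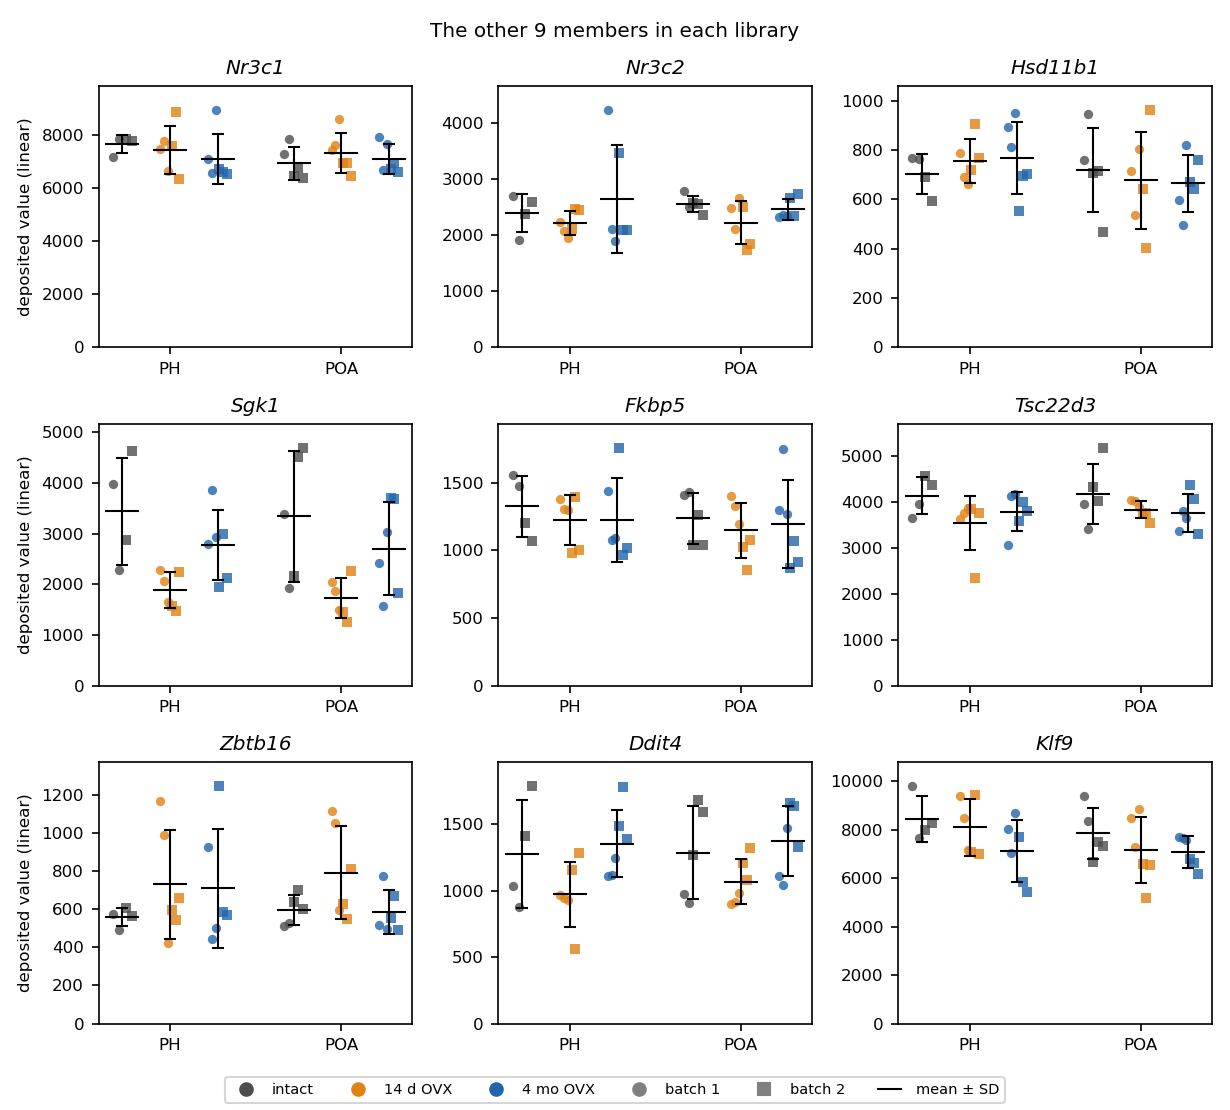
Deposited values (vertical axes, linear, from 0) of the 9 members other than *Depp1*, 1 point per library, for the PH and the POA. Colors give the group, circles are batch 1 and squares batch 2, and the black bars are the mean ± SD of 4 to 6 libraries. *Sgk1* is lowest at 14 days in both regions, *Zbtb16* has 2 high libraries at 14 days in each region, and *Nr3c2* has 2 high libraries at 4 months in the PH.

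The values of *Depp1* lay close to the floor, at 21.4 to 190 against 22.1, and it reached 2 times the floor in 32 of 33 libraries. In the POA, where it was chosen, the intact libraries had 47.5, 49.1, 79.5, 64.1 and 89.4, the 14-day libraries had 54.0 to 70.5 (median 61.2), and the 4-month libraries had 86.9 to 143 (median 109). All 6 libraries at 4 months lay above every 14-day library, and 5 of 6 above every intact one. The fitted POA change from intact was 0.84 ± 0.15 (fold 1.79, interval 0.53 to 1.15) at 4 months, as a description, and 0.00098 ± 0.15 at 14 days (adjusted *P* = 0.998).

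*Depp1* was chosen from POA values, but with earlier results of these data known, and PH and POA libraries may come from the same mice. The PH values are therefore not an independent check of the choice. In the PH, the intact libraries had 52.2, 63.4, 77.0 and 54.5, the 14-day libraries had 21.4 to 75.2 (median 60.4), with replicate 5 at the floor and the other 5 at 56.5 or more, and the 4-month libraries had 75.7 to 190 (median 109). The 4-month libraries thus lay above all 14-day libraries, although by little (75.7 against 75.2), and 5 of 6 lay above all intact ones. For neither region was the share of all genes whose groups lay apart in this way computed. The fitted PH change was 0.81 ± 0.26 (fold 1.75, interval 0.25 to 1.363) relative to intact and 0.82 ± 0.25 relative to 14 days (interval 0.29 to 1.35). Over all genes tested, neither passed (unadjusted *P* = 0.0067 and 0.0043, adjusted *P* = 0.617 and 1.00, limma), while the exact two-sided permutation tests of *Depp1* alone gave *P* = 0.0143 and 0.00216, the second being the smallest that 924 arrangements allow, and *P* = 0.03 and 0.005 when labels were exchanged within batches. These permutation tests compared mean log2 values without the surrogate variable (SV1) of the fits, with differences of 0.85 and 1.03. In the PH, SV1 was 0.79 in 14-day replicate 5 and -0.31 to 0.19 in the other libraries. The fits and the permutation tests thus differ in how they use that library. Within batches 1 and 2, the PH change from intact was 1.06 and 0.65, and the POA change 1.105 and 0.61. Without PH replicate 3 at 4 months, the highest library at 190, the changes were 0.56 from intact and 0.51 from 14 days, and without PH replicate 5 at 14 days they were 0.87 and 0.78.

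The summed markers of vessel, blood and microglial cells are given by group, without a test. Their ranges at 4 months overlapped those of intact mice, except for the red cell genes in the PH. The summed value of 8 endothelial markers, a cell type in which *Depp1* is expressed, was 9469 to 11100 in the intact PH, 10311 to 12836 at 14 days and 10741 to 13816 at 4 months, and the POA sums were 9843 to 11592, 10118 to 11296 and 10350 to 13100. The 4 red cell genes summed to 6036 to 7915, 6562 to 13801 and 11374 to 34581 across the 3 PH groups and to 6635 to 15401, 8563 to 16105 and 8880 to 21024 across those of the POA. The 6 microglial markers summed to 10890 to 12160, 11538 to 12696 and 12055 to 13568 for the PH and to 10916 to 12140, 11946 to 12742 and 11919 to 13577 for the POA. The 5 mural cell markers, of the cells that surround capillaries and small arteries, summed to 7147 to 7685, 7074 to 10606 and 6664 to 10069 for the PH and to 6557 to 8302, 6835 to 8468 and 7451 to 9785 for the POA, with POA medians of 7510, 7489 and 8497. PH replicate 3 at 4 months, highest in *Depp1* (190), also had the highest red cell and endothelial sums of the PH, 34581 and 13816. Its microglial sum, 12055, was the lowest of its group. The red cell gene *Hba-a2* ranked 6 among genes most like *Depp1* in the PH (r = 0.89). In the POA, the library highest in *Depp1* (143) had red cell and endothelial sums of 14210 and 11707, below the highest, 21024 and 13100. The part of these cells in the *Depp1* values was not tested.

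**Figure D3:**
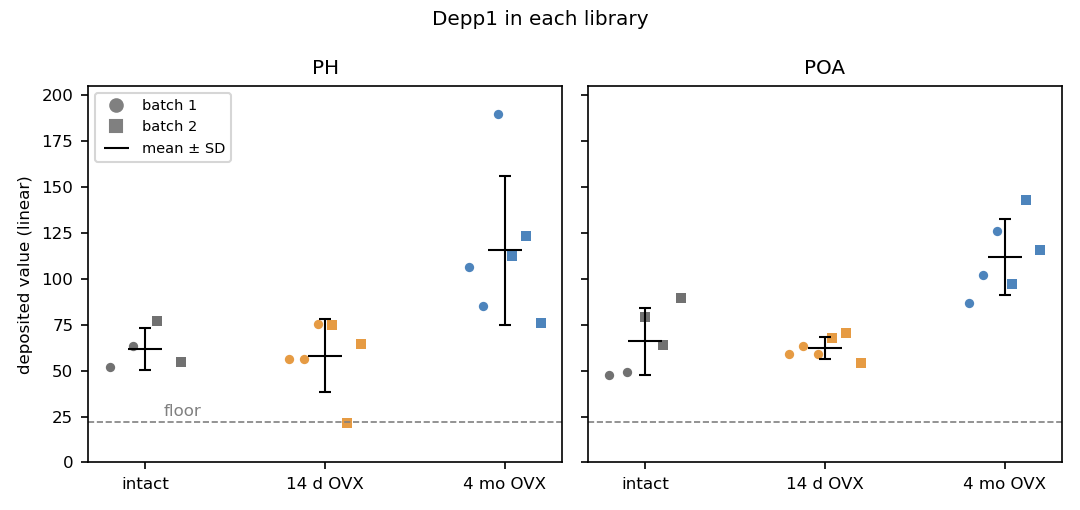
Deposited values of *Depp1* (vertical axis, linear, from 0) in each library of the PH and the POA. Circles are batch 1, squares batch 2, black bars the mean ± SD of 4 to 6 libraries, and the dashed line is the floor of 22.1. The 4-month libraries lie at 75.7 to 190 (PH) and at 86.9 to 143 (POA), above the 14-day libraries of the same region.

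Set against all genes, the members passed the threshold as follows. At an adjusted *P* under 0.05, 0 of 10 members were called in the PH at 14 days, as were 0% of all genes tested, and at 4 months 0 of 10 members against 0.0318% of all genes. Between 14 days and 4 months in the PH, 0 of 10 members and 0.00909% of all genes were called, and in the POA at 14 days 0 of 10 and 0.00468%. In the POA at 4 months, *Depp1* was called relative to intact (0.0936% of all genes were) and relative to 14 days (0.0281%), and no other member was. *Depp1* was listed because of its call in this region at 4 months, so the call was fixed by the choice. It is a description and not a result about the members. The call was lost in 14 of 17 fits that left out 1 POA library relative to intact and in 11 of 17 relative to 14 days, and in both without the covariate or without the filter. With the replicate number as a block, it was lost relative to intact and kept relative to 14 days. An unadjusted *P* under 0.05 was reached by 1 member in the PH at 14 days (3.04% of all genes), by 2 at 4 months (6.07%), by 3 between 14 days and 4 months (4.09%) and by 3 in the POA at 14 days (6.14%). The median fitted change of the members at 14 days was -0.14 for the PH and -0.14 for the POA, against -0.0018 and -0.0059 over all genes tested, and -0.018 in the PH at 4 months against -0.0093.

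The changes at 14 days were also compared between the regions in 1 fit of all 33 libraries. Of the 10 members, 0 differed at an adjusted *P* under 0.05 (0.00435% of 23014 genes) and 0 at an unadjusted *P* under 0.05 (3.07%), by limma. For *Sgk1*, the PH change minus the POA change was 0.059 ± 0.38 (interval -0.72 to 0.84), and the widest difference was that of *Hsd11b1*, at 0.17 ± 0.24 (interval -0.32 to 0.66), so differences of these sizes were not detectable with these libraries. For *Depp1* at 4 months, the difference was -0.036 ± 0.31 (interval -0.67 to 0.59), as a description.

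**Figure D4:**
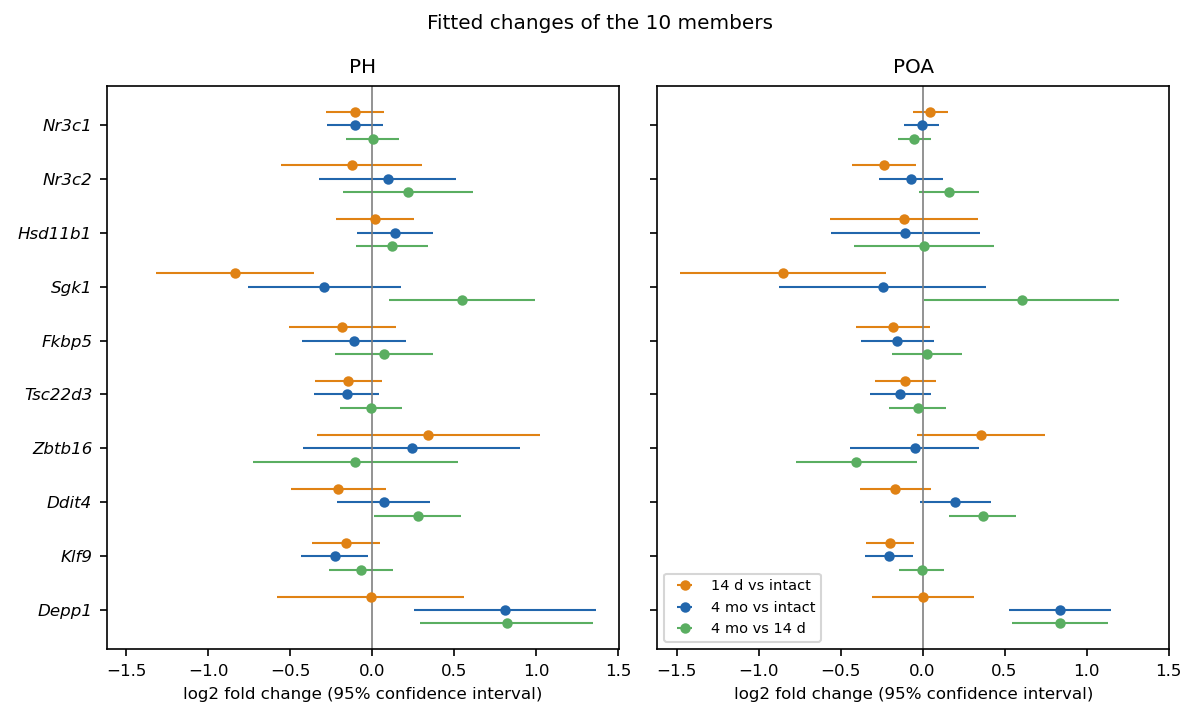
Fitted log2 fold changes (points) with 95% confidence intervals (lines) of the 10 members in the PH and the POA, for 14 days against intact, 4 months against intact and 4 months against 14 days. *Sgk1* at 14 days lies at -0.84 (PH) and -0.85 (POA), and *Depp1* at 4 months lies at 0.81 and 0.84.

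Other genes of glucocorticoid action were taken from 5 lists written by hand. Of 29 other glucocorticoid-induced genes, 28 were tested for the PH and 29 for the POA. At 14 days, 7 of 28 PH changes and 7 of 29 POA changes lay above 0, with medians of -0.072 and -0.11 and 0 genes called, by limma, while 1 of 28 and 6 of 29 genes had an unadjusted *P* under 0.05. Over all genes tested, the medians were -0.0018 and -0.0059, and 3.04% and 6.14% were under 0.05. At 4 months relative to intact, 15 of 28 and 14 of 29 lay above 0, with medians of 0.043 and -0.0018 against -0.0093 and -0.011 over all genes, and 7 of 28 and 5 of 29 were under an unadjusted P of 0.05, against 6.07% and 8.5% of all genes. Between 14 days and 4 months, 19 of 28 and 24 of 29 lay above 0, with medians of 0.12 and 0.067 against -0.0078 and -0.0023, and 5 and 6 genes were under 0.05, against 4.09% and 5.11% of all genes. The called gene was *Dusp1*, a phosphatase that inactivates MAP kinases and is induced by glucocorticoids and by many other stimuli, in the POA at 4 months. Its values there were 860 to 1317, against 566 to 906 in intact mice and 500 to 781 at 14 days, and the fitted changes were 0.68 ± 0.09 from intact and 0.69 ± 0.09 from 14 days. In the PH, the change of *Dusp1* at 4 months was 0.11 ± 0.19 relative to intact and 0.38 ± 0.18 relative to 14 days (unadjusted *P* = 0.0448, adjusted *P* = 0.9996, limma). The 3 largest changes of this list at 4 months were those of *Cebpd* (0.54 ± 0.22), *Plin4* (0.50 ± 0.27) and *Sult1a1* (0.42 ± 0.15) in the PH and those of *Dusp1*, *Lcn2* (0.59 ± 0.20) and *Cebpd* (0.38 ± 0.12) in the POA.

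Among 19 receptor chaperones and coregulators, 0 were called in any of the 6 comparisons by limma, and 1 or 2 per comparison had an unadjusted *P* under 0.05, against 3.04% to 8.5% of all genes by comparison, shares that apply to the next lists as well. The largest changes at 4 months were those of the coactivator *Crebbp* (0.27 ± 0.12), the immunophilin *Fkbp4* (-0.20 ± 0.07) and the coactivator *Ncoa1* (0.18 ± 0.15) in the PH, and of the ubiquitin ligase *Nedd4l* (-0.14 ± 0.11), the coactivator *Ncoa3* (-0.13 ± 0.10) and the chaperone *Hsp90ab1* (-0.13 ± 0.05) in the POA. Of 15 genes of glucocorticoid supply and the adrenal axis, 14 were in the table and 10 were tested, 0 were called, and 0 to 2 per comparison had an unadjusted *P* under 0.05, again by limma. The largest at 4 months were those of *Pomc* (0.50 ± 0.29), the precursor of ACTH, the CRH receptor *Crhr1* (0.25 ± 0.13) and the efflux transporter *Abcb1a* (0.23 ± 0.14) in the PH, and of *Avp* (0.49 ± 0.31), *Pomc* (-0.36 ± 0.74) and *Crh* (-0.31 ± 0.38) in the POA.

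Of 9 other steroid receptors, 0 were called, and at most 1 per comparison had an unadjusted *P* under 0.05 (limma). The progesterone receptor *Pgr*, an estrogen-induced gene, had the largest change at 4 months in each region, with a PH value of -0.22 ± 0.09 and a POA value of -0.24 ± 0.06, followed by *Esr1* (0.17 ± 0.12) and *Pgrmc1* (-0.14 ± 0.11) in the PH and *Esr2* (0.21 ± 0.14) and *Gper1* (0.14 ± 0.20) in the POA. Of 20 FOXO factors and targets, 0 were called by limma and 1 to 4 per comparison had an unadjusted *P* under 0.05, and at 4 months 10 of 20 PH changes and 11 of 20 POA changes lay above 0, with medians of -0.00066 and 0.031 against -0.0093 and -0.011 over all genes. At 4 months, 2 of 20 and 4 of 20 were under an unadjusted P of 0.05, against 6.07% and 8.5% of all genes. The largest were those of the endothelial transcription factor *Klf2* (PH change 0.78 ± 0.15 with adjusted *P* = 0.108, POA change 0.40 ± 0.16) and of *Klf4* (0.33 ± 0.13 and 0.34 ± 0.13), followed by *Pik3ip1* (0.24 ± 0.11) in the PH and by *Txnip* (0.23 ± 0.12) in the POA.

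Pairs of members were correlated across the libraries of a region, 45 pairs in each of 2 regions, with *P* values from 100000 permutations adjusted over all 90. Of these, 1 pair passed, *Fkbp5* and *Klf9* in the POA (r = 0.76, permutation *P* = 4e-04, adjusted *P* = 0.036, Spearman rho = 0.79, permutation *P* = 0.00031, adjusted *P* = 0.0279, 17 libraries), and r was 0.80 without the 2 libraries farthest from the median of *Fkbp5*. Both genes were higher in batch 1 of the POA, with mean log2 values of 10.43 against 9.98 (*Fkbp5*) and 12.99 against 12.68 (*Klf9*). The permutations exchanged libraries across groups and batches, so their *P* values do not set this difference between batches apart. Within batches, r was -0.11 in batch 1 (8 libraries) and 0.72 in batch 2 (9 libraries), so the relation did not hold in both. The same pair had r = 0.59 in the PH (adjusted *P* = 0.157). *Sgk1* and *Ddit4* had r = 0.68 in the POA (adjusted *P* = 0.122), with 0.46 and 0.96 in batches 1 and 2. *Ddit4* and *Depp1* had r = 0.64 across PH libraries (adjusted *P* = 0.157), with 0.80 and 0.84 in batches 1 and 2. In batch 2, PH replicate 5 at 14 days was lowest for both genes, at 561 and, at the floor, 21.4. The batch 2 value without this library was not computed. Over both batches, r was 0.56 without the 2 PH libraries farthest from the median of *Ddit4*. Across POA libraries, r was 0.61 for this pair, with 0.84 and 0.40 in batches 1 and 2. This POA value is a description, because it includes the 4-month values from which *Depp1* was chosen.

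The genes whose values were most like those of a member were ranked by Pearson r over 33 libraries among 15419 protein-coding genes, after the mean of each region, group and batch had been subtracted, as a description without a test. For *Depp1* these were *Gpt2* (r = 0.84), *Srebf2* (0.83), *Bud23* (0.82), *Prrt4* (0.82) and *Slc6a11* (0.80). For *Fkbp5* they were *Kctd1* (0.79), *Olfm1* (0.78), *Chd9* (0.77), *Atf6* (0.77) and *Baiap2l1* (0.74), and for *Nr3c1* they were *Trim37* (0.92), *Rims2* (0.88), *Hecw1* (0.87), *Xkr4* (0.87) and *Dennd4a* (0.87). Among members looked up after their values were seen, *Zbtb16* was most like *Plin4* (0.78), the lipid droplet gene of the induced list above, and *Gpd1* (0.71), of the same list. *Sgk1* and *Ddit4* were both most like *Nfkbia* (0.72 and 0.87), and *Nr3c2* was most like *Wipf3* (0.96). The points share the libraries and their normalization.

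Libraries of the PH and the POA that share a time and a replicate number were compared across 16 such pairs, again after the means had been subtracted and as a description. The r between regions was 0.59 for *Ddit4*, 0.56 for *Sgk1* and 0.35 for *Zbtb16*, 0.28 for *Nr3c1* and 0.12 for *Depp1*, and it was -0.56 for *Fkbp5*. The labels do not say whether such libraries came from the same mouse.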

How the data were processed

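The authors pseudoaligned paired-end reads of stranded mRNA libraries to the mouse transcriptome (mm39, GENCODE M30) with kallisto, imported them with tximport and analyzed them with DESeq2. The deposited table holds 42824 rows of a normalized expression signal for 33 libraries, on a linear scale, and only 0.000219% of the values are whole numbers. The step to these values is not given in the sources used here, and read depth cannot be recovered. The 1259 rows without a gene name were left out.

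The members and gene lists were chosen with earlier results of these data known. The 10 members, the called genes of each list and its 3 largest changes at 4 months in each region are named. Some listed genes were left out and are not reported here. Log2 values without a pseudocount were fitted per region with limma (version 3.58.1, statmod 1.5.0, R 4.3.3; trend and robust variances) on the 3 groups and a first surrogate variable (SV1, 5 rounds of reweighting, written in base R), in place of the count test of the study's methods, since the values are not counts. The Benjamini-Hochberg adjustment covered all genes that reached 2 times the floor in at least 4 PH (21998 genes) or 5 POA libraries (21366), and a gene was called under 0.05. Regions were compared by interaction over 23014 genes. The fits were tested on simulated data. Exact permutation tests compared mean log2 values without SV1, two-sided. Correlations used 100000 permutations over all libraries of a region (scipy 1.17.1, pandas 2.3.3, Python 3.11.15, numpy 2.4.6). Gene positions are from GENCODE M39 (GRCm39).

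Replicate numbers are not said to mark shared mice. Mice of different groups were euthanized at different times, so libraries of different groups came from different mice and a shared number cannot pair them. Same-numbered POA libraries at 14 days and 4 months deviated together in all 6 pairs (r = 0.20 to 0.35). They also share a batch, and only the group means had been subtracted. In the other comparisons, not every pair was above 0.1. Other fits used no covariate, the batch instead of SV1 or both, the replicate block, only the 2 groups compared, no filter, log2(value + 16), each batch alone, each library left out and the permutation test of each member. The human data of the study were not analyzed here.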

Additional observations from a re-analysis of the deposited data

Results flagged for a closer look

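The highest and the lowest library of each group were compared with the rest of the group for all 10 members, 60 groups in all, by Dixon's test on log2 values, and 4 values stood apart. Chance alone would place about 1 in 20 groups past this limit. PH replicate 5 at 14 days was the lowest of its group for *Depp1* (21.4, with a gap of 0.772 of the group's range) and for *Tsc22d3* (2344, 0.872 of the range). PH replicate 3 at 4 months was the highest of its group for *Nr3c1* (8959, 0.731 of the range), and it was also the library with the highest *Depp1* value in its group. PH replicate 1 of the intact mice was the lowest of its group for *Nr3c1* (7179, 0.876 of the range).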

How the results depend on the processing

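The 4 tested comparisons and the difference at 14 days called 0 of 10 members in limma, and in the comparisons this held in all 108 refits under another covariate, filter, scale, sample set or left-out library. The exact permutation test of each member alone, not adjusted, gave *P* under 0.05 for *Sgk1* at 14 days in the PH and the POA and for *Depp1* in the PH at 4 months. Between 14 days and 4 months in the PH, it did so for *Sgk1*, *Ddit4* and *Depp1*. This test did not use SV1, and for *Ddit4* the difference that it tested was 0.50 against a fitted change of 0.28. The test was run on the members only, so the share of all genes under 0.05 is not known, and no result about the members as a group is drawn from it. It is not reported for the POA comparisons with 4 months, in which *Depp1* was chosen. For the fitted changes, the lowest and highest values over the alternatives were -1.07 and -0.61 for *Sgk1* at 14 days in the PH (adjusted *P* = 0.916 to 1.00), -1.16 and -0.51 in the POA, 0.56 and 1.06 for *Depp1* at 4 months relative to intact in the PH and 0.51 and 1.11 relative to 14 days.

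The call of *Depp1* in the POA at 4 months was close to the threshold. Since *Depp1* was listed because of this call, the refits describe how the call depended on the processing and are not a test. Relative to intact, 0 members were called without a covariate, with SV1 and batch, with only the 2 groups, without the filter, in batch 1 or batch 2 alone and without 14-day replicates 1 and 2, an alternative chosen after seeing the data, while the change of *Depp1* stayed between 0.61 and 1.105. Relative to 14 days, 0 members were called without a covariate, without the filter, in either batch alone and without 14-day replicates 1 and 2. With single libraries left out, the count ranged from 0 to 1 in both, and *Depp1* stayed called in 3 of 17 refits relative to intact (those without intact replicate 5, 14-day replicate 6 or 4-month replicate 4) and in 6 of 17 relative to 14 days. The replicate block gave 0 members in the POA at 4 months relative to intact (*Depp1* at 0.90), 1 relative to 14 days (*Depp1* at 0.84) and changed no other call. Same-numbered libraries were correlated at -0.33 to 0.44 over the 6 comparisons, 23 of 30 above 0.1. Shared batches may add to these values, and the numbers were not taken as pairing the libraries in any comparison.

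Of 1620 refitted member changes, 118 had the opposite sign, and in 112 of these the reported change lay within 1 SE of 0. The other 6, of which 5 came from a batch alone, were *Sgk1* in the PH at 4 months (0.069, batch 1), *Hsd11b1* in the PH between 14 days and 4 months (-0.30, batch 2), *Tsc22d3* in the POA at 14 days (0.12, batch 1), *Fkbp5* in the POA at 4 months (0.0023, batch 1), *Nr3c2* in the POA between 14 days and 4 months (-0.037, batch 1) and *Nr3c2* in the PH between the same times without 4-month replicates 1 and 4 (-0.088). Batches hold 2 or 3 libraries per group. The cause was not tested. Depth is unknown, and the values near the floor limit what can be said of *Depp1*.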

Other observations

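The 29 other glucocorticoid-induced genes were looked up in the 14-day libraries in which *Zbtb16* was high, after the values had been seen. In the PH, replicates 1 and 2 were both above the other 4 libraries at 14 days for 2 of 29 genes, *Cdkn1a*, an inhibitor of cyclin-dependent kinases (395 and 404 against 285 to 369), and *Plin4*, a lipid droplet gene (229 and 195 against 127 to 166), and both genes overlapped the intact libraries (359 to 447 and 172 to 211). Over all genes tested in the PH, 6.05% had both libraries above the other 4, a share near that of the list. In the POA, this was the case for 0 of 29 genes and for 5.73% of all genes, and *Plin4* had 224 and 153 against 131 to 284. *Zbtb16* itself had 1168 and 989 in these PH libraries and 1114 and 1050 in those of the POA.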
